A study of Anas platyrhynchos with 6 samples.

Results

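The 200 most abundant non-coding transcripts of the laying duck ovary were described in 6 RNA sequencing libraries. They were chosen by their mean abundance over all 6 libraries from the 11262 transcripts with XR accessions, the RefSeq prefix for predicted non-coding RNA, and they stand among 41952 transcripts in all. Abundance is given in FPKM, a fragment count per unit of transcript length and of sequenced reads, and this unit was inferred from the deposited values. The levels of the 200 are therefore a description, while the difference between the groups took no part in the choice.

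Ovaries of high-production ducks, with a laying rate above 99%, were compared with ovaries of low-production ducks, with a laying rate below 85%. There were 3 libraries in each group. All 6 came from Jinding ducks (Anas platyrhynchos) of a half-sib family, kept alike to an age of 340 days, and no group received a treatment or carried an altered allele. Nothing in the labels says that each library is a separate duck, and the p-values cover only sample-to-sample spread, which may be partly technical. The numbers in high 1 to 3 and low 1 to 3 follow record order and pair nothing across groups.

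Long non-coding RNAs are transcribed and often spliced and polyadenylated like messenger RNAs but carry no long conserved reading frame. Some act in the nucleus on chromatin or neighbouring genes, others in the cytoplasm on RNA stability or translation, and for most no function is known. In vertebrates many of them are restricted to a few tissues, and germ cells are a common site of expression. The XR prefix is wider than this class: it also covers non-coding variants of coding genes and other transcripts for which no protein was predicted. The libraries were made with an mRNA kit, which selects polyadenylated RNA, so non-coding RNAs without a poly(A) tail are under-represented.

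Few of the 200 transcripts could be named. Matching by accession, without the version number, to the RefSeq gene table of the IASCAAS Pekin duck telomere-to-telomere assembly placed 29 of them in 28 genes, all 29 in genes annotated as lncRNA and all with placeholder names only. The other 171 had no match and are called by their accession. Over all non-coding transcripts 665 matched, or 5.90%, against 14.5% of the 200. No well-known non-coding gene on the list set for naming, such as MALAT1, NEAT1 or GAS5, could be matched by symbol to an XR accession, so nothing can be said here on those genes. The 19 non-coding transcripts that did match a gene symbol all belonged to coding genes and ranked too low to be among the 200, the highest being a transcript of ANAPC10 at rank 492.

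The ovary itself was checked by its marker genes, as far as these could be named. Of 8 granulosa markers 4 were measured, with a summed level of 75.7 to 98.1 FPKM in high and 63.4 to 99.2 FPKM in low libraries. Of 15 oocyte markers 5 were measured (GDF9, ZP2, MOS, BTG4 and ZAR1L), with 703 to 976 FPKM in high and 415 to 1138 FPKM in low libraries. None of the markers listed for theca and interstitial steroid cells, or for erythrocytes, was matched. A piece of whole ovary holds oocytes, follicle cells, stroma, vessels and blood cells. In such bulk samples fewer cells of a type and less RNA per cell cannot be told apart.

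The abundance of the 200 transcripts was steep. The first, XR_001194144.1, averaged 1028 FPKM and stood at rank 56 of all transcripts, below 55 coding ones. The last, XR_001186212.1, averaged 23.3 FPKM and stood at rank 4944. In all, 31 transcripts were above 100 FPKM, 37 lay from 50 to 100 FPKM and 132 were at or under 50 FPKM, with a median of 37.4 FPKM. The first 7, all above 400 FPKM, held 30.8% of the summed mean FPKM of the 200, and 24 transcripts held 50% of it. The choice at rank 200 was close: XR_001190721.1 averaged 23.3 FPKM at rank 199, and XR_001192244.1 and XR_001193532.1 were just outside at 23.2 and 23.1 FPKM.

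The 200 transcripts held a similar small share of the RNA in both groups. They made up 2.48%, 2.5% and 2.43% of the summed FPKM in high 1 to 3 and 2.67%, 2.45% and 2.52% in low 1 to 3. The group means were 2.47 ± 0.0361% in high and 2.55 ± 0.113% in low ovaries (SD, n = 3 each), and the groups overlapped, with low 2 below high 1 and high 2. Only 1.78% of the non-coding transcripts thus carried 56.7% of the non-coding FPKM. Since FPKM is scaled by length, these are shares of length-scaled abundance and not of reads.

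All non-coding transcripts together made up 4.30%, 4.40% and 4.06% of the summed FPKM in high 1 to 3 and 5.11%, 4.54% and 4.18% in low 1 to 3. The means were 4.25 ± 0.175% in high and 4.61 ± 0.466% in low ovaries (SD, n = 3 each), and the two-sided exact permutation p was 0.3, where the 20 possible labelings allow no p below 0.1. The difference was -0.108 percentage points without low 1, -0.569 without low 3 and -0.357 with all 6 libraries. Low 1 also had the most non-coding transcripts at or above 1 FPKM, 2466, against 2064 in low 3, the fewest.

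**Figure D1:**
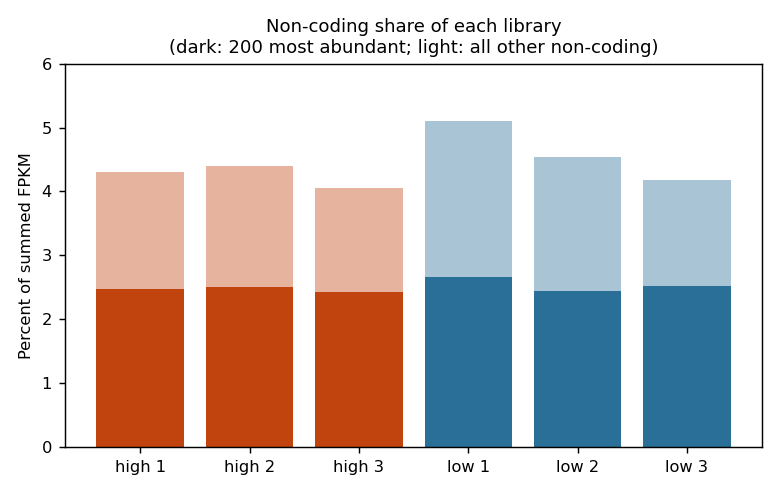
Percent of the summed FPKM of each library (y axis, from 0) held by the 200 most abundant non-coding transcripts (dark) and by all other non-coding transcripts (light), for the 3 high and the 3 low libraries. The dark part lies between 2.43% and 2.67% in every library, and the light part is largest in low 1, at 2.44%.

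The most abundant transcript, XR_001194144.1, was at 1267, 1217 and 1007 FPKM in high and at 867, 702 and 1107 FPKM in low libraries. Low 3 was above high 3, so the groups overlapped, and the log2 difference of 0.40 (SE 0.236, 95% interval -0.15 to 0.95) missed the threshold (limma adjusted p = 0.9998) and was 0.24 without low 2. Log2 differences here and below are high minus low on the log2(FPKM + 1) scale. XR_001195640.1, at rank 2, was at 1018, 1020 and 892 FPKM in high and at 1275, 732 and 380 FPKM in low libraries. Its low libraries lay on both sides of all high ones, with a range from low 1 to low 3 far wider than that of the high group.

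Some of the leading transcripts were steady across all libraries. XR_217935.2, at rank 7 by abundance, was at 401, 372 and 464 FPKM in high and at 414, 400 and 409 FPKM in low libraries, a log2 difference of 0.011 (95% interval -0.36 to 0.38). XR_001194570.1, at rank 3, was at 902, 813 and 855 FPKM in high and at 652, 857 and 792 FPKM in low libraries. XR_218061.2, at rank 5, was at 493, 425 and 631 FPKM in high and at 564, 557 and 484 FPKM in low libraries. These 3 transcripts stayed within a 1.5-fold range over the 6 libraries, and their 95% intervals lay within 1 on the log2 scale in either direction. The sign of each difference changed under at least 1 alternative setting, that of XR_001194570.1 to -0.11 with quantile normalization.

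The rest of the first 10 varied more, those given here mainly within the low group. For XR_001196176.1, at rank 6 and given below, the high libraries all stood above the low ones. XR_218167.2, at rank 4, was at 659, 759 and 667 FPKM in high and at 479, 427 and 836 FPKM in low libraries, so that low 3 was the highest of the 6. XR_001194557.1, at rank 9, was at 248, 217 and 300 FPKM in high and at 375, 233 and 202 FPKM in low libraries. XR_001193612.1, at rank 10, was at 210, 234 and 241 FPKM in high and at 367, 203 and 65.7 FPKM in low libraries. The high group was tight for this last transcript, at 228 ± 16.4 FPKM, against 212 ± 151 FPKM in low ovaries (SD, n = 3 each). XR_001196132.1, at rank 8, reached its rank through 1 library: it was at 92.4, 136 and 76.6 FPKM in high and at 69.3, 114 and 1329 FPKM in low libraries.

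**Figure D2:**
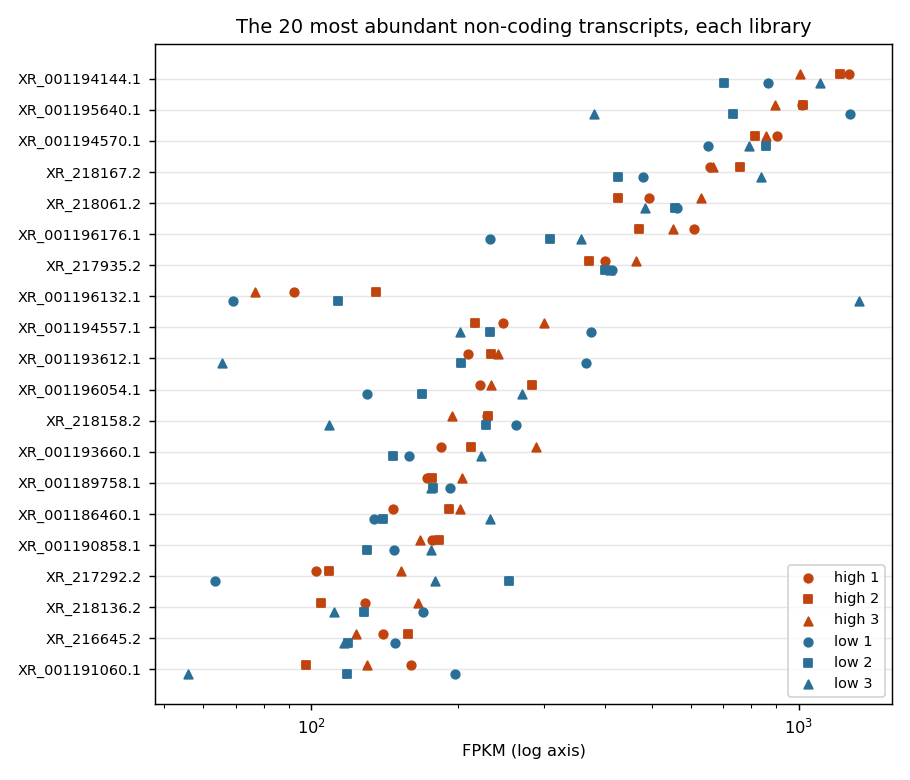
FPKM (x axis, log scale) of the 20 most abundant non-coding transcripts (rows, most abundant on top) in each of the 3 high and the 3 low libraries. XR_001196132.1 shows low 3 alone at 1329 FPKM, and XR_217935.2 shows all 6 libraries between 372 and 464 FPKM.

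None of the 200 transcripts was called different between high and low ovaries. By limma-trend, fitted over 19790 transcripts with all 200 among them, 0 of the 200 were called higher and 0 lower, where 0% of all tested transcripts were called higher and 0.00505% lower. The smallest limma adjusted p among the 200 was 0.9998. At an unadjusted limma p under 0.05 there were 13 of the 200, or 6.5%, beside 3.51% of all tested transcripts. Of the 13, 7 were higher in high ovaries, beside 1.69% of all tested, and 6 lower, beside 1.82%. The high and low groups did not overlap for 10 of the 200, or 5.0%, beside 8.54% of all tested transcripts. The high group lay above the low group for 6 of them, beside 3.72% of all tested, and below it for 4, beside 4.83%.

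The count at an unadjusted limma p under 0.05 moved with single libraries. At an unadjusted limma p under 0.05 there were 28 of the 200 without low 1, beside 9.7% of all tested transcripts, and 28 without low 3, beside 7.36%. There were 6 without high 1, beside 3.03%, 9 without high 2, beside 2.28%, 12 without high 3, beside 2.45%, and 8 without low 2, beside 2.4%. The limma adjusted p called 0 of the 200 in each of these 6 fits. The count without overlap can only stay or rise when a library is left out, so its rise from 10 is no measure of instability. Groups did not overlap for 48 of the 200 without low 1, beside 28.1% of all tested, and for 46 without low 3, beside 23.7%. They did not overlap for 27 without high 1, beside 17.2%, 22 without high 2, beside 14.4%, 22 without high 3, beside 15.3%, and 17 without low 2, beside 13.4%. With array weights 29 of the 200 were called, 22 higher, beside 5.63% of all tested, and 7 lower, beside 5.95%, and 73 had an unadjusted limma p under 0.05, beside 33.2%. In that fit low 2 carried 97.1% of the weight given to the low group.

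The precision of these comparisons was limited by the spread between libraries. The median standard error of the log2 difference was 0.297 for the 200 transcripts, with a median 95% interval of 0.692 on either side. For 118 of the 200, or 59.0%, the interval lay within 1 on the log2 scale in either direction. Among 4689 coding transcripts within the same abundance range it did so for 90.5%, with a median standard error of 0.192. These coding transcripts of like abundance share the range only: their median was 47.4 FPKM, against 37.4 FPKM for the 200. Transcript length and read support were not matched. For the other 82 transcripts a difference of more than 1 on the log2 scale lies inside the interval.

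The log2 difference was above 0 for 130 of the 200 transcripts and below 0 for 70, with a median of 0.079. The share above 0, 65.0%, was that of the coding transcripts of like abundance, 65.0%, whereas over all tested transcripts 49.5% were above 0 and the median was -0.0028. The split depended on scaling and on low 3. With each library scaled to the same summed FPKM, 92 were above and 108 below 0, and without low 3 these were 94 and 106. The shares above 0 moved as well for all tested transcripts, to 34.7% and 44.3%, and for coding ones of like abundance, to 40.5% and 51.0%. With median centring 136 of the 200 were above and 64 below 0, and with quantile normalization 118 and 82. Summed FPKM averaged 633110 in high and 589491 in low libraries, and the groups did not overlap (two-sided exact permutation p = 0.1, the smallest that 3 against 3 libraries can give).

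**Figure D3:**
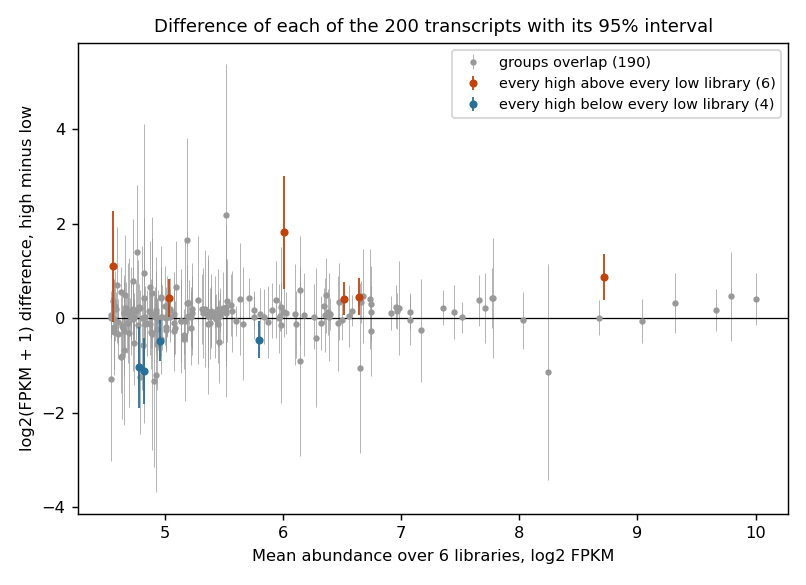
Log2(FPKM + 1) difference, high minus low (y axis), of each of the 200 transcripts with its 95% interval (bars) against its mean abundance (x axis, log2 FPKM). Coloured points mark the 6 transcripts whose high group lay wholly above the low group and the 4 whose high group lay wholly below; none of the 200 passed the limma threshold.

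Among the transcripts higher in high ovaries by their log2 difference, XR_001196176.1 had the smallest p and was the only one of the first 10 whose groups did not overlap. It was at 610, 470 and 553 FPKM in high and at 233, 309 and 358 FPKM in low libraries, with means of 544 ± 70.4 FPKM in high and 300 ± 63.3 FPKM in low ovaries (SD, n = 3 each). Its log2 difference was 0.87 (SE 0.212, 95% interval 0.38 to 1.37, limma adjusted p = 0.9998). XR_001191610.1 had the largest log2 difference among the 6 without overlap on this side, at 103, 139 and 55.5 FPKM in high and at 46.6, 30.3 and 11.6 FPKM in low libraries. Its log2 difference was 1.82 (SE 0.513, 95% interval 0.62 to 3.01, limma adjusted p = 0.9998), with a 2.5-fold range inside the high group and a 4.01-fold range inside the low group. It belongs to the lncRNA gene LOC139998542, which lies between BDNF, a neurotrophin gene, and KIF18A, a kinesin of the mitotic spindle. Neither neighbour was matched to a transcript of the tables.

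The other transcripts named on this side differed less. XR_001190598.1 was at 116, 112 and 119 FPKM in high and at 99.8, 68.2 and 86.6 FPKM in low libraries, a log2 difference of 0.46 (SE 0.170). XR_001195764.1 was at 105, 99.3 and 109 FPKM in high and at 91.7, 74.5 and 70.4 FPKM in low libraries, a log2 difference of 0.41 (SE 0.152). XR_218141.2 was at 32.4, 34.8 and 46.4 FPKM in high and at 27.9, 27.5 and 27.8 FPKM in low libraries. In each of these 3 the high libraries stood above all low ones. For XR_001196115.1 they did not: it was at 33.8, 21.2 and 34.8 FPKM in high and at 20.1, 21.7 and 17.3 FPKM in low libraries, with high 2 below low 2. The sixth transcript without overlap on this side was XR_001191089.1, singled out after its values were seen, at 29.2, 35.3 and 27.7 FPKM in high and at 5.11, 27.1 and 17.7 FPKM in low libraries.

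On the other side XR_001195322.1 had the smallest p. It was at 16.1, 18.0 and 15.9 FPKM in high and at 29.9, 62.7 and 27.7 FPKM in low libraries, with means of 16.7 ± 1.18 FPKM in high and 40.1 ± 19.6 FPKM in low ovaries (SD, n = 3 each). Its log2 difference was -1.12 (SE 0.301, 95% interval -1.83 to -0.42, limma adjusted p = 0.9998). Its gene, LOC106020016, lies between KTN1, which codes for the kinesin-binding protein kinectin, and PELI2, an E3 ubiquitin ligase gene of innate immune signalling. The low libraries were all above the high ones, and low 2 stood far above the other low libraries.

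XR_001196156.1 was at 14.1, 13.7 and 22.7 FPKM in high and at 61.8, 29.4 and 23.1 FPKM in low libraries, a log2 difference of -1.04 (SE 0.370) that was -0.64 without low 1. XR_001190771.1 was at 45.7, 42.8 and 51.0 FPKM in high and at 77.2, 59.0 and 57.3 FPKM in low libraries, a log2 difference of -0.45 (SE 0.167). XR_001192061.1 was at 19.8, 28.7 and 29.8 FPKM in high and at 38.2, 36.0 and 34.4 FPKM in low libraries, a log2 difference of -0.48 (SE 0.188) that was -0.30 without high 1. The groups did not overlap in these 3, but in XR_001196156.1 high 3 and low 3 nearly met. XR_001190605.1 overlapped, with high 3 above low 2 and low 3, at 11, 15.4 and 28.4 FPKM in high and at 37.8, 27.7 and 28.1 FPKM in low libraries.

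XR_001188635.1 was at 17.9, 7.39 and 21.6 FPKM in high and at 42.7, 59.5 and 17.2 FPKM in low libraries, a log2 difference of -1.25 (SE 0.513) that was -0.81 without high 2. The groups overlapped through low 3. Its gene, LOC106016141, lies between LRFN2, a synaptic adhesion gene, and SUPT7L, a subunit gene of a histone acetyltransferase complex. SUPT7L was at 23.0, 29.6 and 26.2 FPKM in high and at 32.2, 36.0 and 28.3 FPKM in low libraries, summed over 2 transcripts, with overlap between high 2 and low 3. LRFN2, summed over 2 coding transcripts, was at 3.14, 2.26 and 2.20 FPKM in high and at 4.06, 2.07 and 1.38 FPKM in low libraries. In that sum the low libraries lay on both sides of all high ones. It leaves out 2 non-coding transcripts matched to LRFN2, which averaged 9.53 and 8.99 FPKM over the 6 libraries. None of the transcripts named on either side passed the threshold.

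The spread within the low group was larger than within the high group, for these transcripts as for coding ones. The median SD of log2(FPKM + 1) was 0.258 in high and 0.524 in low ovaries, and 146 of the 200 transcripts, or 73.0%, varied more among the low libraries. For coding transcripts of like abundance these medians were 0.147 in high and 0.275 in low ovaries, and 73.7% varied more among the low libraries. The non-coding transcripts thus had a larger median SD than coding transcripts of like abundance in both groups. The median coefficient of variation was 17.8% in high and 35.9% in low ovaries, against 10.4% and 19.3% for those coding transcripts. It was over 50% for 17 transcripts in high and for 59 in low ovaries.

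Over all 6 libraries 25 of the 200 transcripts, or 12.5%, stayed within a 1.5-fold range, and 30, or 15%, ranged over more than 5-fold. For coding transcripts of like abundance these shares were 42.8% and 0.981%. The correlation of the 200 log2 values was 0.844 to 0.904 between high libraries, 0.448 to 0.730 between low libraries and 0.664 to 0.843 between groups. It is across transcripts, which are not independent replicates, and is given without a test. The lowest value was that of low 1 and low 3.

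The largest contrast between libraries was thus within the low group. Low 1 was the highest library for 70 of the 200 transcripts and the lowest for 43. Low 3 was the lowest for 73 and the highest for 31. Low 1 exceeded low 3 by more than 1 on the log2 scale for 63 of the 200, beside 12.6% of all tested transcripts. Low 3 exceeded low 1 by that much for 30, beside 7.83%. Among the 2331 tested non-coding transcripts these counts were 777 and 226, so the excess of low 1 was not particular to the 200. Low 1 and low 3 are single libraries, so the contrast has no replicate check. The sum of the 5 oocyte markers was highest in low 1 and lowest in low 3. It was 976, 825 and 703 FPKM in high and 1138, 836 and 415 FPKM in low libraries. ZP2, an egg-coat gene, was at 467, 337 and 288 FPKM in high and at 517, 362 and 179 FPKM in low libraries. GDF9 was highest in low 2, at 83.8 FPKM, with 74.3 FPKM in low 1 and 49.4 FPKM in low 3.

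The 4 measured granulosa markers summed to 85.8, 75.7 and 98.1 FPKM in high and to 99.2, 73.8 and 63.4 FPKM in low libraries. Low 1 was above low 3 for CYP19A1 (39.9 and 12.8 FPKM) and FST (43.2 and 33.2 FPKM). It was below low 3 for FSHR (15.5 and 16.2 FPKM) and INHBA (0.646 and 1.29 FPKM). For the 1 gene measured of each of the surface epithelium, liver and adrenal lists (ESRP1, FGG and MC2R), low 1 was above low 3. Other lists ran the other way, low 1 below low 3, as did LYZ, the 1 gene measured of the oviduct gland list. The 5 measured of 8 stromal markers summed to 1079, 861 and 790 FPKM in high and to 525, 761 and 855 FPKM in low libraries. The smooth muscle gene ACTA2, the only one measured of 5, was at 1794, 1794 and 1427 FPKM in high and at 1154, 2147 and 2510 FPKM in low libraries. The 4 measured of 8 leukocyte markers summed to 1452, 478 and 354 FPKM in high and to 144, 371 and 378 FPKM in low libraries. Most of each sum was 1 gene, JCHAIN, at 1347.5, 388 and 282 FPKM in high and at 95.5, 311 and 289 FPKM in low libraries. The 5 measured of 6 endothelial markers summed to 179, 145 and 144 FPKM in high and to 107, 142 and 151 FPKM in low libraries. Of these 5, TEK (11.2 and 9.73 FPKM in low 1 and low 3) and EMCN (1.85 and 0.443 FPKM) went against their sum. The part of these cell types in the values of the non-coding transcripts was not tested.

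**Figure D4:**
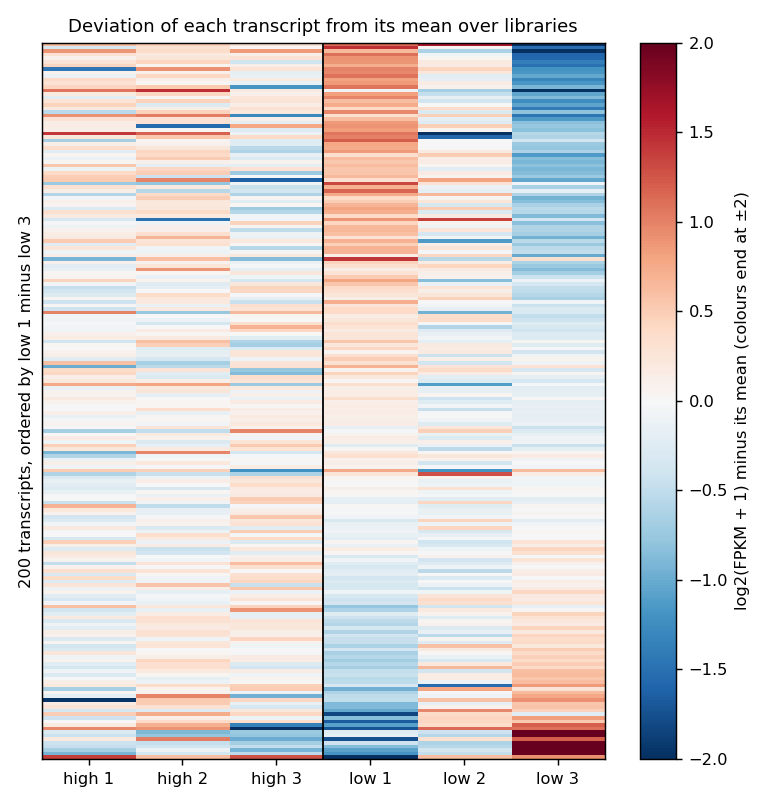
Deviation of log2(FPKM + 1) of each of the 200 transcripts (rows, ordered by low 1 minus low 3) from its mean over the 6 libraries (columns; red higher, blue lower, colours ending at ±2). Low 1 is above low 3 by more than 1 on the log2 scale in the top 63 rows and below it by that much in the bottom 30, while the high libraries stay nearer to 0 in most rows.

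The transcripts in annotated lncRNA genes lay mostly on one side of this contrast. Of the 29, 23 were higher in low 1 than in low 3 by more than 1 on the log2 scale and 1 was lower by that much, with a median difference of 1.47. Of the 171 without a match, 40 were higher and 29 lower, with a median of 0.22. Of the 374 other tested non-coding transcripts in annotated lncRNA genes, which are not among the 200, 191 were higher and 11 lower, with a median of 1.01. Of the 1747 other tested non-coding transcripts without a match, 518 were higher and 185 lower, with a median of 0.50. Outside the 200 the shares higher were thus 51.1% with and 29.7% without a match, against 79.3% and 23.4% among the 200. The summed level of the 29 was 1397, 1570 and 1205 FPKM in high and 1975, 1443 and 674 FPKM in low libraries, so that the high libraries stood between low 3 and low 1. This split was noticed after the values were seen and was not tested.

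**Figure D5:**
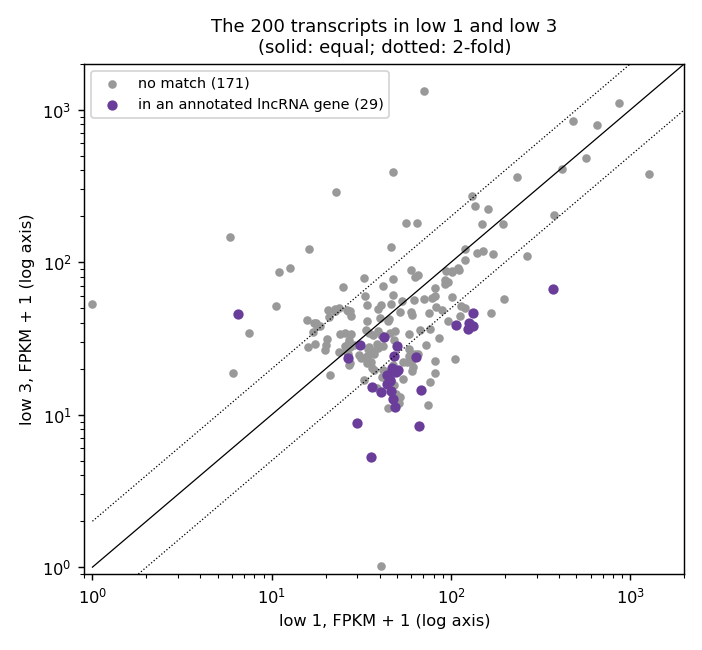
FPKM + 1 of the 200 transcripts in low 1 (x axis, log scale) and low 3 (y axis, log scale), with transcripts in annotated lncRNA genes in purple. The solid line marks equal values and the dotted lines 2-fold; 23 of the 29 purple points lie more than 1 log2 unit to the low 1 side.

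For 10 of the 29 transcripts in lncRNA genes, an adjacent or overlapping coding gene had both a symbol and a transcript in the tables, and those neighbours did not all share the order of the libraries. XR_001193612.1, in LOC106019061, lies between LYPLAL1, a lysophospholipase-like gene, and SLC30A10, a manganese transporter gene. SLC30A10 was far lower, at 1.19, 1.58 and 1.75 FPKM in high and at 3.0, 1.82 and 1.24 FPKM in low libraries, again with low 1 the highest. LOC106016356 gave 2 of the 29, XR_001188997.1 at 36.7, 33.9 and 21.6 FPKM in high and 49.4, 27.4 and 18.5 FPKM in low libraries, and XR_001188998.1 at 25.6, 29.3 and 21.2 FPKM in high and 35.2, 18.0 and 14.1 FPKM in low libraries.

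Their neighbour GJA1, which codes for connexin 43 of the gap junctions between follicle cells, was at 99.4, 89.9 and 103 FPKM in high and at 126, 78.8 and 69.7 FPKM in low libraries. Low 1 was the highest and low 3 the lowest library for all 3 of these transcripts. KLF6, a zinc-finger transcription factor gene next to LOC106014490, had low 3 as its highest library, at 51.5 FPKM, with 34.8 FPKM in low 1. The transcript of LOC106014490, XR_001185845.1, was at 33.7, 53.4 and 40.3 FPKM in high and at 48.6, 48.9 and 27.4 FPKM in low libraries. RPS29, a ribosomal protein gene next to LOC106020160, was at 4731, 5967 and 5249 FPKM in high and at 3263, 3338 and 5047 FPKM in low libraries. XR_001195573.1 of LOC106020160 was lowest in high 2, where RPS29 was highest, at 73.4, 22.2 and 114 FPKM in high and at 125, 93.0 and 38.7 FPKM in low libraries. STEAP4, next to LOC106016567, and SCNN1D, which overlaps LOC106014517, were below 1 FPKM in every library. BRINP3, next to LOC106017086, was at 5.10, 7.38 and 9.57 FPKM in high and at 9.92, 4.88 and 7.27 FPKM in low libraries, summed over 4 transcripts.

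Low 3 alone carried a further set of transcripts. For 6 of the 200, or 3.0%, more than 50% of the summed FPKM lay in 1 library, which was low 3 each time, beside 0.788% of all tested transcripts and 0.0640% of coding ones of like abundance. Counted over any 1 library, the share among all 2331 tested non-coding transcripts was 3.13%, near that of the 200. The libraries differed: of those 73 transcripts 25 had it in low 3 and 25 in low 1, whereas all 6 of the 200 had it in low 3. The ranking by the mean also admits transcripts carried by 1 library. Apart from XR_001196132.1, these were XR_001196185.1 at 387 FPKM in low 3 and 38.7 to 46.6 FPKM in the other 5 libraries, and XR_001196189.1 at 287 FPKM and 21.7 to 30.5 FPKM. XR_001190053.1 had 145 FPKM in low 3 and 4.88 to 9.42 FPKM elsewhere, XR_001196199.1 had 121 and 9.58 to 15.2 FPKM, and XR_001186212.1 had 91.1 and 7.13 to 11.7 FPKM. Low 3 was 7.79 to 15.4 times the next highest library in the 6. XR_001192244.1, just outside the 200, had the same form, with 92.3 FPKM in low 3 and 5.88 to 15.3 FPKM elsewhere. XR_001196185.1, XR_001196189.1 and XR_001196199.1 were named after their values were seen.

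The means of these 6 rest on that library, and none of the 6 has a match in the gene table. Their log2 differences between the groups rest on it as well: that of XR_001196132.1 was -1.14 (SE 0.979) with all libraries, 0.15 without low 3 and -1.97 without low 1. That of XR_001190053.1 was -1.20 (SE 1.07) with all libraries, 0.22 without low 3 and -2.09 without low 1.

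For 2 transcripts a single low library was below 1 FPKM. XR_218178.2 was at 72.2, 41.9 and 66.7 FPKM in high and at 41.9 and 52.5 FPKM in low 2 and low 3, but was listed at practically 0 in low 1. XR_001191586.1 was at 27.6, 24.7 and 21.9 FPKM in high and at 39.4 and 55.9 FPKM in low 1 and low 2, but at 0.0183 FPKM in low 3. These were the only 2 values below 1 FPKM among the 200 transcripts. XR_001188459.1, in LOC106016044, was low in 1 library of each group, at 40.6, 38.7 and 3.20 FPKM in high and at 5.45, 45.7 and 44.4 FPKM in low libraries. Its neighbour CRISPLD2, a gene of a secreted cysteine-rich protein, was lowest in high 3 and next lowest in low 1, at 56.6, 33.7 and 29.0 FPKM in high and at 30.9, 56.0 and 46.7 FPKM in low libraries. These 3 transcripts and XR_001190053.1 had the largest spread within groups of the 200.

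The accessions of the 200 transcripts were not a plain sample of the non-coding annotation. Older accessions of 6 digits made up 48 of the 200, with 28.0% of their summed FPKM, and 7.89% of all 608 such accessions were among the 200, against 1.43% of the 10654 accessions of 9 digits. The transcripts with older accessions were the steadier ones. Over the 6 libraries 31 of the 48 stayed within a 2-fold range, against 51 of the 152 with newer accessions. Their median SD of log2(FPKM + 1) was 0.213 in high and 0.355 in low ovaries. All 29 transcripts in lncRNA genes had newer accessions, and 1 of the 29 stayed within 2-fold, against 81 of the 171 without a match. These contrasts were noticed after the values were seen and are given without a test.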

How the data were processed

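Ovary RNA of high-production and low-production ducks, in 3 libraries each, was measured by mRNA sequencing on a stranded kit, per the labels' protocols. Bowtie2 2.0.6 and TopHat2 2.0.9 were used, per the submitters' processing notes; how abundances were computed, and on which build and annotation, is not given in the sources. The authors deposited 1 value for each transcript and library, read as FPKM because the deposited values are fractional, never negative and sum to different totals (569606 to 639135). Read depth is unknown: log2 ratios to high 1 over 6632 low transcripts showed no common step (at most 1.10% in a bin of 0.02), so no count test was run and precision comes from the replicates.

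XR transcripts were ranked by mean FPKM over 6 libraries and the first 200 kept. A transcript needed 1 FPKM or more in 3 or more libraries (19790 did, all 200 included) and was tested on log2(FPKM + 1) with limma-trend (limma 3.58.1, R 4.3.3), two-sided, Benjamini-Hochberg adjusted over all tested, threshold 0.05; the code was tested on simulated data. Single values per library were compared by an exact permutation test (Python 3.11.15). No p was adjusted over the 200 alone. Alternatives changed the pseudocount, filter, scaling, weights, ranking and libraries. Gene names came from a RefSeq table matched without version, for 4636 of 41952 transcripts, and it was used only for names and neighbours.

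Named were the 10 most abundant, the 6 with the smallest p in each direction, the 4 with the largest pooled spread, the pairs around rank 200 and listed non-coding genes, beside neighbours and others said to be singled out. The transcripts, lists and tests were chosen with earlier results of these data known.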

Additional observations from a re-analysis of the deposited data

How the results depend on the processing

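The count of called transcripts over the whole table was 1, and 0 of the 200 were called. With a pseudocount of 0.01 or no filter on low values 0 were called over the whole table, and with a library left out 1 to 3, among the 200 always 0. Array weights called 2292 transcripts over the whole table (5.63% higher and 5.95% lower) and 29 of the 200, 22 higher and 7 lower, with 97.1% of the low group's weight on low 2. Transcripts of the 200 whose groups do not overlap numbered 10, beside 8.54% of all tested. With a library left out, which compares fewer libraries, they numbered 17 to 48, beside 13.4% to 28.1% of all tested. Among the 100 most abundant there were 5, beside the same 8.54% of all tested with all 6 libraries. The median log2 difference of the 200 ran from -0.023 with equal summed FPKM, which moved the median of all tested transcripts to -0.091, to 0.15 without low 1, with -0.0095 without low 3. With a library left out the difference in the share of the 200 ran from -0.126 to -0.0151 percentage points, and that of all non-coding transcripts from -0.569 to -0.108. Ranking by the median over libraries kept 192 of the 200.

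Of 378 values of the 27 named transcripts under alternatives, 346 kept their direction and side of the threshold, 11 passed it with array weights, and 21 changed sign. These were XR_001194570.1 at -0.11 with quantile normalization and -0.0050 with array weights; XR_217935.2 at -0.092 with equal summed FPKM, -0.12 with quantile normalization and -0.077 to 0.082 with a library left out, with -0.0032 without low 2; XR_001194557.1 at 0.076 with array weights and from -0.23 to 0.22 with a library left out, with 0.067 without high 2; XR_001191586.1 at -1.06 with array weights and from -0.91 (without low 3) to 1.996 with a library left out; and XR_001190721.1 at -0.032 with equal summed FPKM and from -0.13 to 0.21 with a library left out, with -0.049 without low 1. With 1 library left out XR_218061.2 ran from -0.22 to 0.062, XR_001188459.1 from -1.27 to 0.77 with 0.16 and 0.14 without low 2 and low 3, XR_001196132.1 from -1.97 to 0.15, XR_001190053.1 from -2.09 to 0.22 and XR_001193612.1 from -0.26 to 0.97. Values that kept their sign but moved by over 1.5 times with a library left out included XR_218178.2 (2.18, and 0.32 without low 1), XR_001195640.1 (0.46, and 0.013 without low 3 and 0.89 without low 1), XR_001186212.1 (-1.29, and -0.31 without low 3), XR_218167.2 (0.32, and 0.13 without low 2 and 0.62 without low 3), XR_001190605.1 (-0.83, and -0.54 without high 1) and XR_218141.2 (0.42, and 0.27 without high 3). The causes were not tested. No paired analysis was possible because the labels give the groups no shared replicate numbers. Depth is unknown and sets no limit that could be given.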
